A study of Mus musculus with 12 samples.

Results

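The genes described here belong by symbol to the voltage-gated sodium and calcium channel families, measured by RNA sequencing in the hippocampus of APP/PS1 mice. They were taken as all rows of type mRNA whose symbol starts with Scn and ends in a number and the letter a or b, or starts with Cacna, Cacnb or Cacng. This gave 39 of the 44760 genes present in both deposited tables, namely 19 pore-forming and 20 auxiliary subunits. The pore-forming set, assigned by symbol like the other classes, held 9 sodium alpha and 10 calcium alpha1 subunits. The auxiliary set held 4 sodium beta, 4 calcium alpha2delta, 4 calcium beta and 8 calcium gamma subunits. Scn2a, the sodium alpha subunit listed under its older symbol Scn2a1, falls outside the rule and is given with the channel partners.

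All animals were male APPswe/PS1dE9 mice on a C57BL/6 background (N9B6), which carry a Swedish-mutant amyloid precursor protein and a presenilin 1 with an exon deleted and form amyloid plaques with age. No group without these transgenes was compared. A pump under the skin delivered nicotine hydrogen tartrate, at a rate labelled 48 mg/kg/h, or saline for 14 days, and the mice were 7 or 18 months old, which gave 4 groups of 3 libraries. The study asked what nicotine changes at an earlier and a later stage of the disease. The labels do not say whether each library came from its own animal, so p-values measure the spread between libraries only.

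A voltage-gated channel opens its pore when the membrane depolarizes. Sodium alpha subunits carry the upstroke of the action potential, and calcium alpha1 subunits admit the calcium that triggers transmitter release, shapes firing and signals to the nucleus. Each of these pores is a large protein with a long transcript, whereas most auxiliary subunits, which set surface number and gating, are small proteins with short transcripts.

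Library totals were 25071195 to 29245972 counts in the younger mice, and 21260068 to 23715015 in the older. Levels are given as CPM, the counts scaled to the TMM-adjusted size of each library, and CPM per kilobase of the longest annotated coding transcript where genes are compared with each other. The 7- and 18-month libraries were deposited in separate tables with separate library codes, so age and preparation cannot be told apart. Transcripts over 5000 nt held 21.5% to 22.4% of counts in 5 of the 6 libraries of 7 months, 30.6% in 7-month saline library 2, and 34.4% to 35.2% at 18 months. The 5 neuron markers were above 0 in every library, with summed levels of 6836 to 10006 CPM. Choroid plexus markers were highest in 7-month nicotine library 1, at 6114 CPM. They reached 1608 CPM in 7-month saline library 3 and 1499 CPM in 18-month nicotine library 1. Pituitary markers summed to 174 CPM in 7-month nicotine library 1 and 1.26 to 3.95 CPM in the others.

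Of the 39 genes, 35 passed the filter on low counts. Scn4a, the sodium channel of skeletal muscle, had 38 counts over all 12 libraries, Cacng1, the gamma subunit of the muscle calcium channel, had 12, and Scn10a and Scn11a, both channels of sensory neurons, had 4 and 5. These 4 genes were not tested. Scn7a, Scn9a, Cacna2d4, Cacna1f, the calcium channel of the retina, and Cacna1s, that of skeletal muscle, were tested but lay at 0.0927 to 0.307 CPM per kb.

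Among sodium beta subunits Scn3b had a level per length of 61.2 and Scn2b of 56.2 CPM per kb. Of the sodium pores, Scn8a, the channel of axon initial segments and nodes, had 34.1 CPM per kb, Scn1a, prominent in inhibitory neurons, 11.1, and Scn3a, best known from the embryonic brain, 4.76. Calcium pores per kb were led by Cacna1e, which forms R-type channels, at 27.05 CPM per kb, Cacna1a, the P/Q-type pore of presynaptic terminals, at 25.2, and Cacna1h, a T-type pore, at 21.9. Among calcium auxiliary genes Cacnb3 had 86.3, Cacng8 71.98, Cacng7 59.95, Cacnb1 46.8 and Cacna2d3 32.9 CPM per kb. These levels rest on the annotated transcript lengths, and their order was not tested.

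Promoter windows are shown for a pore higher at 18 months with both infusions and an auxiliary gene higher at 18 months within nicotine, both from the deposited counts. Windows of a pore of low level and a pore near 0 counts are also shown. All are the 250 bases before the RefSeq start (GRCm38.p6), 5′ to 3′ on the gene's strand, with each CG dinucleotide in capitals. They were chosen among windows that lie outside the gene's annotated span. Cacng8 and Scn2b, also higher with both infusions, had windows of 0 and 1 CG that reach into that span. Whether CG number goes with level or age was not tested. Cacna1b, the N-type calcium pore, lies at chr2:24763153-24763402, minus strand, with 29 CG. Cacna2d1, an alpha2delta subunit bound by gabapentin, lies at chr5:15934441-15934690, plus strand, with 36 CG. Scn9a lies at chr2:66634963-66635212, minus strand, with 5 CG, and Scn11a at chr9:119825457-119825706, minus strand, with 3 CG.
Cacna1b: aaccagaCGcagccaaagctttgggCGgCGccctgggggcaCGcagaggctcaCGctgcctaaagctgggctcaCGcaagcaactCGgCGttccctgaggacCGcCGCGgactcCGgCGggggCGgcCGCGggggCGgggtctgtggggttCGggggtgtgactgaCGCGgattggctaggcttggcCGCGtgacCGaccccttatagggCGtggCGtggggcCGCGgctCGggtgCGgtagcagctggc
Cacna2d1: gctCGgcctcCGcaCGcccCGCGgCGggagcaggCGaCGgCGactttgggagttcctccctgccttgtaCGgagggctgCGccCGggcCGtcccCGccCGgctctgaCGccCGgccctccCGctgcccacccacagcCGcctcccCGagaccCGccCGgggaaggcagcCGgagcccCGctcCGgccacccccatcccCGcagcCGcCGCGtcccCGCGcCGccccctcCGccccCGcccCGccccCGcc
Scn9a: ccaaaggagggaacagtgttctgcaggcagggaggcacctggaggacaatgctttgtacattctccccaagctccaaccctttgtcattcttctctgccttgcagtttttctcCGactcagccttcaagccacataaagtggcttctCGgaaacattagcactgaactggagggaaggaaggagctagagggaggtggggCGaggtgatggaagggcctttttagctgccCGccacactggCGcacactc
Scn11a: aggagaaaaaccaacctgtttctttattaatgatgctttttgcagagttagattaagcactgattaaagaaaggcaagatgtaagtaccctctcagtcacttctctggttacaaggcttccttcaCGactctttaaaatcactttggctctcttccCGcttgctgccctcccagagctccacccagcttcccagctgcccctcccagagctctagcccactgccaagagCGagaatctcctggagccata
RefSeq entries were matched for 29 of the 39 genes, with 39 windows. Of these 39 windows 13 (33.3%) held at least 20 CG, against 17.9% of all 32851 promoter windows, whose median is 6. By gene, 12 of the 26 tested genes with an entry had such a window and 0 of the 3 untested ones. The motif GGGCGG, searched on both strands, was present in 15 of the 39 windows (38.5%) and in 32.7% of all windows. TATAAA, also searched on both strands, was present in 1 of the 39 and in 12.4% of all windows.

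The comparison of 18 with 7 months asked which channel genes differ between the ages, within saline and within nicotine. Pore-forming genes were higher at 18 months far more often than lower, and so were all genes with transcripts over 5000 nt. The auxiliary genes were split with saline, with 10 of 19 above 0, and mostly upward with nicotine, with 15 of 19 above 0. With saline, 17 of 35 tested genes differed, where 46.1% of all 19171 tested genes did. Of these, 15 were higher (21.5% of all tested genes) and 2 lower (24.6%). With nicotine, 18 differed against 59.3% of all tested genes, 16 higher (29.5%) and 2 lower (29.8%). Thus the share that differed was near or under the background, and the direction was mostly upward. Of the pore-forming genes, 11 of 16 were higher with saline and 9 of 16 with nicotine, and 0 were lower in either. Of all genes with transcripts over 5000 nt, 48.6% were higher and 3.2% lower with saline, and 70.6% and 3.7% with nicotine. The median log2 fold changes of the pore-forming genes were 0.73 and 0.80. The 11 include Cacna1f, at 1.15, which had 187 counts over all 12 libraries and was not called with the offsets described below. Of 19 auxiliary genes, 4 were higher and 2 lower with saline, and 7 were higher and 2 lower with nicotine, with medians of 0.15 and 0.07. The median over all tested genes was -0.03 in both comparisons. The summed levels of some cell type markers also separated the ages, but the members of these lists did not all go one way. The 5 astrocyte markers summed to 1337 to 1569 CPM at 7 months and 2002 to 2559 CPM at 18 months. Of these, 2 (Gfap and Aqp4) were higher in every 18-month library than in every 7-month one, 2 (Aldh1l1 and Gjb6) were lower, and 1 overlapped. The 4 oligodendrocyte precursor markers summed to 232 to 258 CPM and 180.4 to 195 CPM, with Olig1 and Gpr17 lower and Pdgfra and Cspg4 higher. The 5 interneuron markers summed to 538 to 669 CPM and 417 to 453 CPM, with 3 lower (Pvalb, Sst and Vip) and 2 overlapping. Endothelial sums were 156 to 185 CPM and 131 to 156 CPM with 1 of 5 markers lower, and striatal sums 88.4 to 141 CPM and 62.3 to 75.6 CPM with 2 of 6 lower, and the others overlapped. Skeletal muscle sums were 7.03 to 10.2 CPM and 4.31 to 5.91 CPM, and all 5 markers overlapped. The part of these markers in the age differences was not tested. The share of all genes without overlap between ages was not counted, but 46.1% of all tested genes differed with saline and 59.3% with nicotine. Marker levels were not adjusted for transcript length, with which the age differences moved over all genes. In these whole-tissue samples, fewer cells of a type and less RNA per cell cannot be told apart.

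Transcript length moved with these differences. The 5 tested auxiliary genes with transcripts over 5000 nt had medians of 0.62 with saline and 0.74 with nicotine, and the 14 shorter ones -0.16 and 0.05. Over all genes, the median log2 fold change in a class of short transcripts, with a median length of 1531 nt, was -0.46 with saline and -0.61 with nicotine. In the longest class, with a median of 10854.5 nt, it was 0.68 and 1.01. Among all genes with transcripts over 5000 nt, 48.6% were higher with saline and 70.6% with nicotine. Across the 35 genes, Spearman's rho between length and log2 fold change was 0.54 with saline and 0.52 with nicotine, against 0.45 and 0.51 across all genes with a transcript. These genes share libraries and are not independent replicates, so the coefficients are descriptions.

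**Figure D1:**
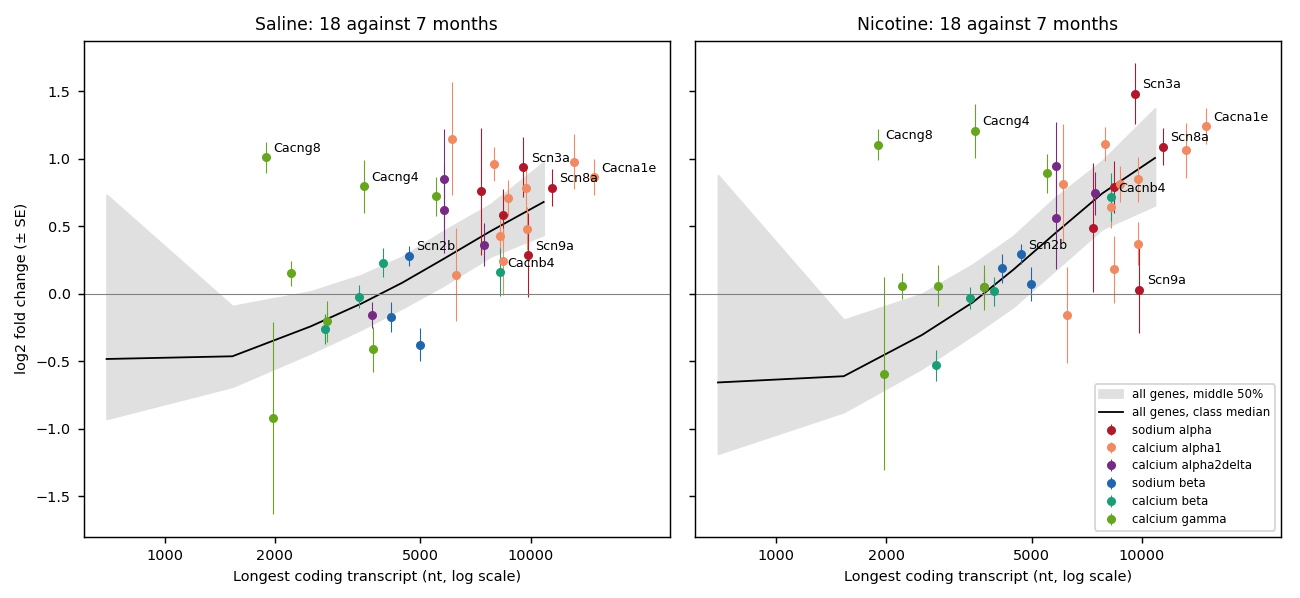
log2 fold change of 18 against 7 months (± SE) for the tested genes reported here against the length of the longest coding transcript (nt, log axis), with saline on the left and nicotine on the right, coloured by subunit class. The black line joins the medians of all genes by length class and the grey band holds their middle 50%. Cacng8 and Cacng4 lie above the band at short length.

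Each comparison was therefore refitted with offsets from a smooth fit, in every library, of log2 counts on transcript length and GC content. The offsets reduced the dependence on length without removing it for short transcripts: the class with a median of 1531 nt kept medians of -0.19 with both infusions, the shortest class, with a median of 693.5 nt, had -0.37 and -0.41, and longer classes had 0.00 to 0.10. Across all genes with a transcript, rho became 0.16 and 0.15. With these offsets, 12 of the 35 genes differed with saline (38.1% of all 16934 genes so tested), 9 higher (17.5%) and 3 lower (20.6%). With nicotine 9 differed (47.1%), 8 higher (23.1%) and 1 lower (24%). The pore-forming genes called higher were 3 instead of 11 with saline and 2 instead of 9 with nicotine, and Scn9a was called lower with nicotine. Of all genes over 5000 nt, 22.8% were then higher and 14.7% lower with saline, and 30.6% and 19.3% with nicotine. Of the 19 auxiliary genes, 6 were higher and 3 lower with saline, and 6 higher and 0 lower with nicotine. The pore-forming medians became 0.16 and 0.04, and the auxiliary medians 0.08 and 0.07. Of the 15 genes higher with saline, 7 were still called higher, and of the 16 higher with nicotine, 5 were. Both fits and both infusions called Cacna1a, Scn3a, Cacng2, Cacng4 and Cacng8 higher.

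**Figure D2:**
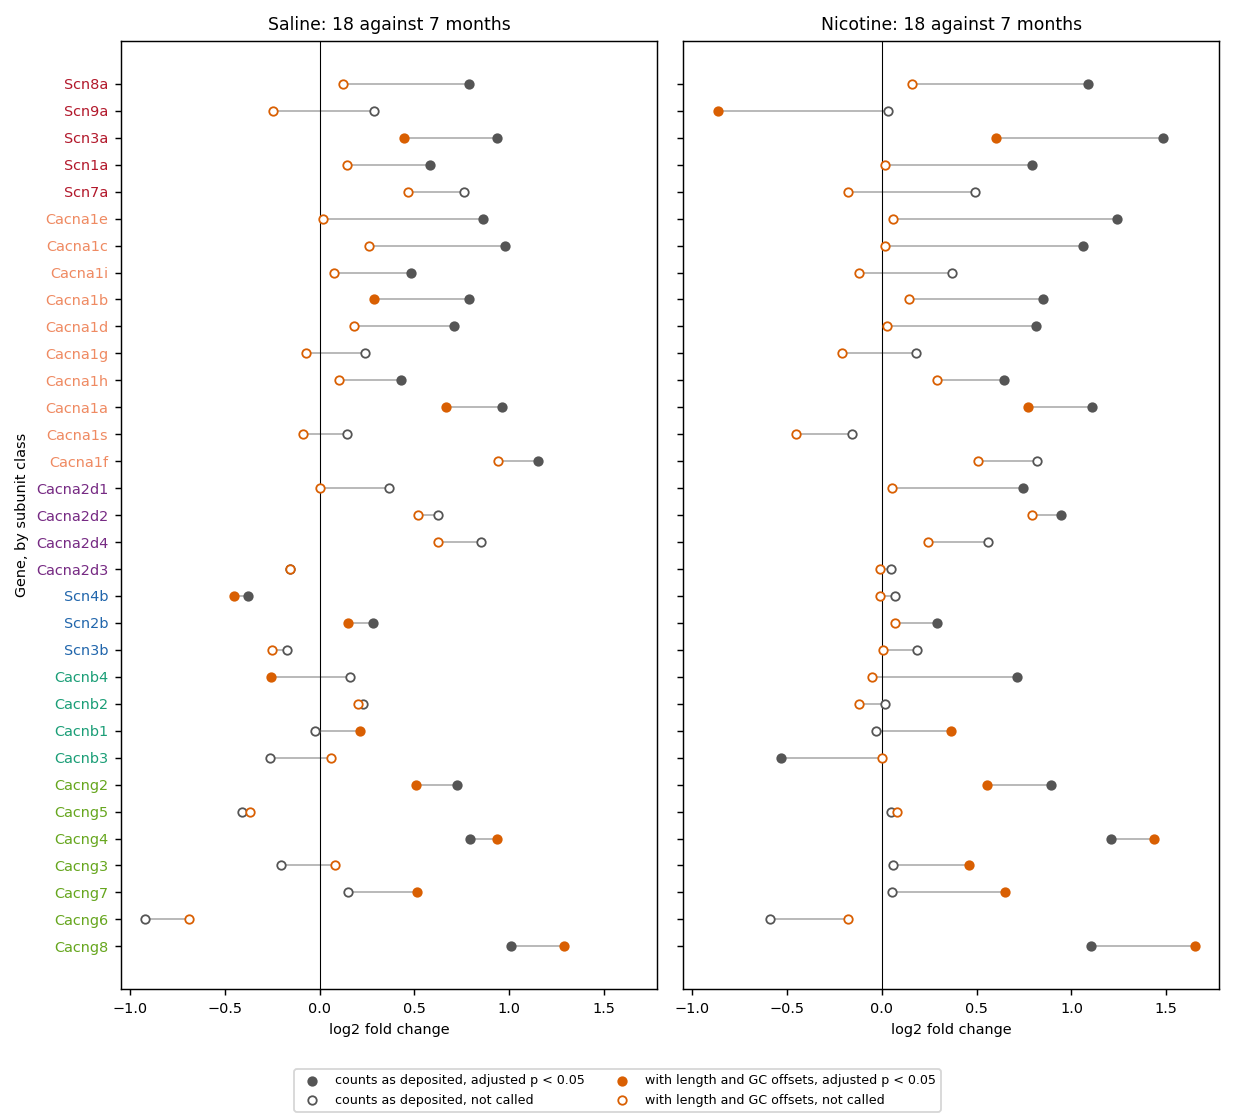
log2 fold change of 18 against 7 months for each tested gene reported here, with saline (left) and nicotine (right), from the deposited counts (grey) and with length and GC offsets (orange). Filled points had an adjusted p under 0.05, and the grey line joins the estimates of a gene. Scn8a and Cacna1e move close to 0 with the offsets, and Cacng8 and Cacng4 move away from it.

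Scn8a, the longest sodium pore transcript here at 11436 nt, was higher at 18 months. At 7 months Scn8a had 237, 368 and 268 CPM in the saline libraries and 235, 266 and 233 CPM in the nicotine libraries. Scn8a had at 18 months 539, 460.2 and 505 CPM with saline and 519, 527 and 516 CPM with nicotine. Every 18-month library lay above every 7-month library, and 7-month saline library 2 was the closest of the 7-month ones. The log2 fold change was 0.79 ± 0.14 with saline (adjusted p = 0.00111) and 1.09 ± 0.14 with nicotine (adjusted p = 8.86e-05). With offsets it was 0.12 and 0.16, with adjusted p of 0.183 and 0.0813, and neither was called.

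Scn1a was higher from the deposited counts, but its ages overlapped. At 7 months Scn1a had 57.99, 109 and 61.8 CPM in the saline libraries and 65.8, 64.5 and 67.6 CPM in the nicotine libraries. Scn1a had at 18 months 110.4, 110.2 and 123 CPM with saline and 109.6, 128 and 106 CPM with nicotine. Saline library 2 of 7 months reached the lower 18-month values, and the other 7-month libraries lay below them. The log2 fold changes were 0.58 ± 0.19 with saline (adjusted p = 0.0261) and 0.79 ± 0.19 with nicotine (adjusted p = 0.00375). With offsets they were 0.15 and 0.02 and not called. The saline call was also lost, at adjusted p of 0.0514 to 0.111, when saline library 1 or 3 of 7 months or any saline library of 18 months was left out, and without 7-month saline library 2 the value was 0.96.

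Scn3a kept its call with the offsets. At 7 months Scn3a had 23.8, 46.9 and 23.1 CPM in the saline libraries and 23.2, 25.3 and 23.3 CPM in the nicotine libraries. Scn3a had at 18 months 61.7, 60.7 and 57.02 CPM with saline and 66.6, 56.9 and 77.2 CPM with nicotine. The 18-month libraries all lay above the 7-month ones, with the highest value in nicotine library 3. The log2 fold changes were 0.94 ± 0.22 with saline (adjusted p = 0.00543) and 1.48 ± 0.23 with nicotine (adjusted p = 0.000229), and 0.45 and 0.60 with offsets (adjusted p = 0.00814 and 0.001). Scn7a and Scn9a, both at a few CPM, were not called from the deposited counts. With offsets Scn9a was lower at 18 months within nicotine, at -0.87 (adjusted p = 0.0216), from 0.03 ± 0.32 without them.

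Scn2b, a beta subunit bound to the pore by a disulfide bridge and cut by the beta-secretase BACE1, was slightly higher. At 7 months Scn2b had 226, 254 and 229 CPM in the saline libraries and 233, 244 and 229.7 CPM in the nicotine libraries. Scn2b had at 18 months 302, 274 and 287 CPM with saline and 275, 294 and 295 CPM with nicotine. No 7-month library of Scn2b reached an 18-month one. Its log2 fold changes were 0.28 ± 0.07 (adjusted p = 0.0089) and 0.29 ± 0.07 (adjusted p = 0.00475), and with offsets 0.15, still called at 0.033, and 0.07, not called at 0.274. Scn4b, which shapes resurgent sodium current, was lower at 18 months within saline, at -0.38 ± 0.12 (adjusted p = 0.0267). Within nicotine it had 0.07 ± 0.12 (adjusted p = 0.636). The saline call of Scn4b was lost, at adjusted p of 0.0806 to 0.137, without saline library 1 or 3 of either age. Scn3b was not called in either comparison, at -0.17 ± 0.11 and 0.19 ± 0.11.

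Cacna1a was higher at 18 months in both fits and with both infusions. At 7 months Cacna1a had 121, 168 and 129 CPM in the saline libraries and 109, 132 and 127 CPM in the nicotine libraries. Cacna1a had at 18 months 301, 242 and 273 CPM with saline and 252, 265 and 277 CPM with nicotine. The lowest 18-month library lay well above the highest 7-month library. Its log2 fold changes were 0.96 ± 0.13 (adjusted p = 0.00027) and 1.11 ± 0.13 (adjusted p = 6.07e-05), and 0.67 and 0.77 with offsets (adjusted p = 0.000152 and 3.93e-05). Among all genes of its length class, whose median length was 7787 nt, 92.0% lay below it with saline and 81.4% with nicotine.

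Cacna1e has the longest transcript of the family at 14921 nt. At 7 months Cacna1e had 254, 366 and 256 CPM in the saline libraries and 224, 256 and 226 CPM in the nicotine libraries. Cacna1e had at 18 months 578, 483 and 533 CPM with saline and 538, 552 and 577 CPM with nicotine. The ages did not overlap. Its log2 fold changes of 0.86 ± 0.13 (adjusted p = 0.000593) and 1.24 ± 0.13 (adjusted p = 4.67e-05) became 0.02 and 0.06 with offsets (adjusted p = 0.867 and 0.556). In the longest class 66.8% and 67.0% of genes lay below Cacna1e.

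The N-type pore Cacna1b was higher with both infusions before the offsets. At 7 months Cacna1b had 89.5, 147 and 90.5 CPM in the saline libraries and 86.7, 105 and 107 CPM in the nicotine libraries. Cacna1b had at 18 months 193, 173 and 198 CPM with saline and 178, 191 and 168 CPM with nicotine. All 18-month values exceeded all 7-month values. The log2 fold changes were 0.79 ± 0.17 and 0.85 ± 0.17 (adjusted p = 0.00308 and 0.00105), and with offsets 0.29, still called at 0.0257, and 0.14, not called at 0.211.

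The L-type pores Cacna1c and Cacna1d were higher in both comparisons, at 0.98 ± 0.20 and 1.06 ± 0.20 for Cacna1c and 0.71 ± 0.13 and 0.81 ± 0.13 for Cacna1d. At 7 months Cacna1c had 68.5, 126 and 67.8 CPM in the saline libraries and 65.1, 83.96 and 79.4 CPM in the nicotine libraries. Cacna1c had at 18 months 168, 156 and 192 CPM with saline and 158, 162 and 157 CPM with nicotine. No 7-month value of Cacna1c reached an 18-month value, and saline library 2 was the highest of 7 months. With offsets Cacna1c had 0.26 and 0.02 and Cacna1d 0.18 and 0.03, and none of these were called. Of the T-type pores, Cacna1g was not called in either comparison. At 7 months Cacna1g had 60.6, 96.97 and 46.3 CPM in the saline libraries and 58.4, 55.99 and 72.9 CPM in the nicotine libraries. Cacna1g had at 18 months 71.3, 75.9 and 93.5 CPM with saline and 71.02, 88.01 and 53.1 CPM with nicotine. Its values overlapped between ages. Cacna1h was higher in both, at 0.43 ± 0.16 (adjusted p = 0.0422) and 0.64 ± 0.16 (adjusted p = 0.00418), and Cacna1i passed with saline, at 0.48 ± 0.16 (adjusted p = 0.0284) and had 0.37 ± 0.16 with nicotine (adjusted p = 0.0646). With offsets Cacna1h had 0.10 and 0.29 and Cacna1i 0.08 and -0.12, and none were called. The test of the difference between infusions passed for 0 channel genes.

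**Figure D3:**
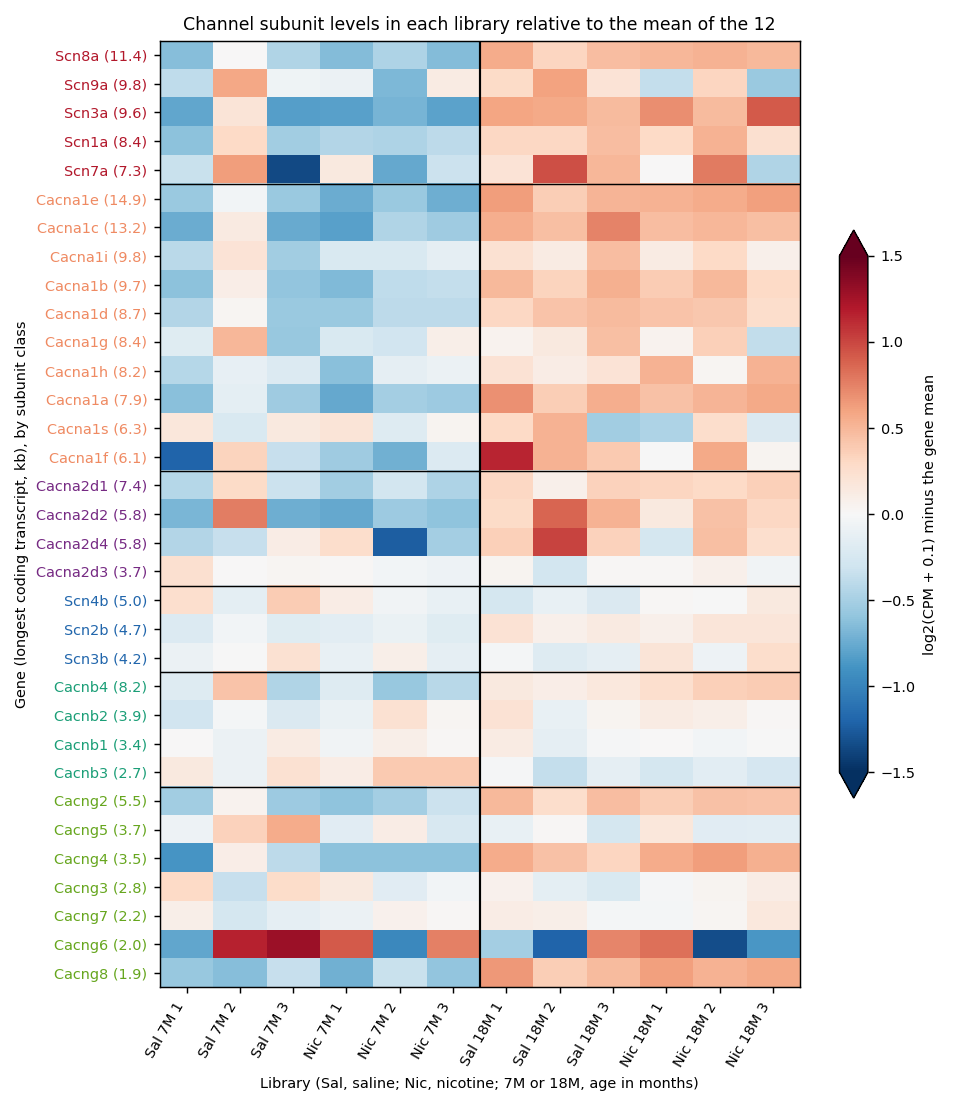
log2(CPM + 0.1) of each tested gene reported here in each library minus its mean over the 12 libraries, with genes in rows by subunit class and descending transcript length (kb in brackets) and libraries in columns (Sal, saline; Nic, nicotine). Red is above and blue below the gene's mean. Scn8a, Cacna1e, Cacna1a and Cacng8 are blue or near white at 7 months and red at 18 months.

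Alpha2delta subunits raise the number of calcium channels at the membrane. Cacna2d1 was higher at 18 months within nicotine, at 0.74 ± 0.16 (adjusted p = 0.00164). Within saline it had 0.36 ± 0.16 (adjusted p = 0.0751). At 7 months Cacna2d1 had 109.6, 179.6 and 118 CPM in the saline libraries and 102, 122 and 107 CPM in the nicotine libraries. Cacna2d1 had at 18 months 182, 155 and 187 CPM with saline and 184, 181 and 189 CPM with nicotine. Saline library 2 of 7 months lay within the 18-month range and the other 5 libraries of 7 months below it. With offsets the values were 0.0026 and 0.06, and neither was called. Cacna2d2 was higher at 18 months within nicotine, at 0.94 ± 0.33 (adjusted p = 0.0267). At 7 months Cacna2d2 had 10.7, 29.2 and 10.3 CPM in the saline libraries and 10.04, 11.7 and 11.3 CPM in the nicotine libraries. Cacna2d2 had at 18 months 20.9, 31.5 and 24.8 CPM with saline and 19.03, 23.3 and 21.3 CPM with nicotine. The 2 saline libraries numbered 2 were the highest of their ages. The call was lost at adjusted p of 0.0540 to 0.0809 without any nicotine library of 7 months or nicotine library 2 or 3 of 18 months, and at 0.0536 with offsets. Cacna2d3, with 3695 nt the shortest of the class, had -0.16 ± 0.10 and 0.05 ± 0.10 and was not called.

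Calcium beta subunits bind the pore inside the cell and carry it to the membrane. Cacnb3 was lower at 18 months within nicotine, at -0.53 ± 0.11 (adjusted p = 0.00172). Within saline it had -0.26 ± 0.11 (adjusted p = 0.0775). At 7 months Cacnb3 had 257, 219 and 272 CPM in the saline libraries and 252, 305 and 306 CPM in the nicotine libraries. Cacnb3 had at 18 months 231, 181 and 213 CPM with saline and 194, 208 and 195 CPM with nicotine. Nicotine libraries of the 2 ages did not overlap, and with offsets the value with nicotine was 0.00067. Cacnb4, the beta subunit with the longest transcript at 8225 nt, was higher at 18 months within nicotine, at 0.71 ± 0.18 (adjusted p = 0.00455). At 7 months Cacnb4 had 79.4, 123 and 66.4 CPM in the saline libraries and 79.4, 61.6 and 68.5 CPM in the nicotine libraries. Cacnb4 had at 18 months 100.4, 97.4 and 102 CPM with saline and 109, 117 and 119 CPM with nicotine. With offsets Cacnb4 was lower at 18 months within saline, at -0.25 (adjusted p = 0.0368), and had -0.05 within nicotine. Cacnb1 and Cacnb2 were not called from the deposited counts, and Cacnb1 was called higher with offsets, at 0.21 and 0.36.

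Several gamma subunits act on AMPA receptors, whose trafficking they control, more than on calcium channels. Cacng8 is one of them and was higher at 18 months, with an annotated transcript of 1897 nt. At 7 months Cacng8 had 86.2, 82.02 and 100.2 CPM in the saline libraries and 77.5, 101 and 84.6 CPM in the nicotine libraries. Cacng8 had at 18 months 200.04, 165 and 177 CPM with saline and 195, 182 and 188 CPM with nicotine. The ages were far apart and 7-month saline library 2 was not raised. The log2 fold changes were 1.01 ± 0.11 (adjusted p = 0.000119) and 1.10 ± 0.11 (adjusted p = 3.87e-05), and 1.29 and 1.65 with offsets. Of the genes in its length class, 92.7% lay below Cacng8 with saline and 92.4% with nicotine. This rank, the offset values and the level per length rest on the annotated length, and they would differ if the transcript made in the hippocampus is longer.

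Cacng4 and Cacng2, 2 further AMPA receptor partners, were also higher in both. At 7 months Cacng4 had 3.26, 6.52 and 4.63 CPM in the saline libraries and 3.95, 3.93 and 3.95 CPM in the nicotine libraries. Cacng4 had at 18 months 9.03, 8.28 and 7.66 CPM with saline and 9.03, 9.47 and 8.84 CPM with nicotine. Cacng4 had log2 fold changes of 0.80 ± 0.20 and 1.21 ± 0.20 (adjusted p = 0.00704 and 0.000372), which became 0.94 and 1.43 with offsets, and the ages did not overlap. At 7 months Cacng2 had 17.6, 26.3 and 17.4 CPM in the saline libraries and 16.7, 17.7 and 20.2 CPM in the nicotine libraries. Cacng2 had at 18 months 35.6, 30.6 and 34.9 CPM with saline and 32.8, 34.5 and 34.1 CPM with nicotine. Cacng2 had 0.72 ± 0.15 and 0.89 ± 0.15 (adjusted p = 0.00239 and 0.000352), and its ages did not overlap. Cacng7, which neighbours Cacng8 on chromosome 7, had 0.15 ± 0.10 and 0.06 ± 0.10 and was not called, but was called higher with offsets at 0.51 and 0.65. Cacng3 had -0.21 ± 0.15 and 0.06 ± 0.15, and Cacng5 -0.41 ± 0.17 and 0.05 ± 0.17. Cacng6, the third gene of that neighbourhood, spread from 1.35 to 8.78 CPM with overlap between all groups.

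Pore-forming and auxiliary subunits were compared within each library as the mean log2 CPM of 14 pore-forming minus that of 19 auxiliary genes with a mean of at least 1 CPM. The difference was -0.42, 0.13 and -0.64 in the saline libraries of 7 months, and -0.44, -0.30 and -0.32 with nicotine. At 18 months it was 0.17, 0.39 and 0.24 with saline and 0.07, 0.30 and 0.04 with nicotine. The group means were -0.31 ± 0.40 and -0.36 ± 0.07 (SD, n = 3) at 7 months and 0.27 ± 0.11 and 0.14 ± 0.14 at 18 months. Saline library 2 of 7 months lay within the 18-month range, and the other 7-month libraries below it. With length and GC offsets the group means were -0.08, 0.06, -0.05 and -0.19, and the ages overlapped.

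**Figure D4:**
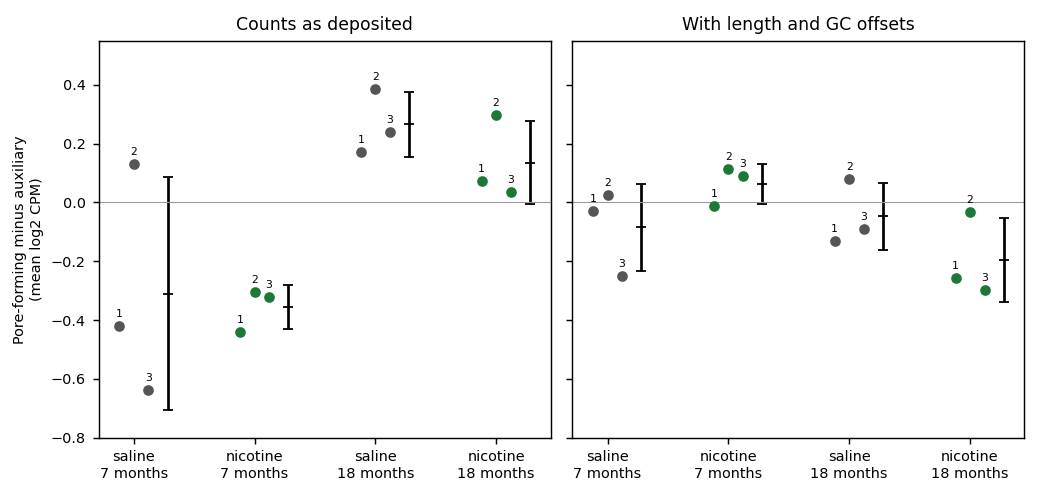
Mean log2 CPM of 14 pore-forming minus 19 auxiliary genes in each library (points, numbered by library) with the group mean and SD beside them, from the deposited counts (left) and after length and GC offsets (right). On the left 5 of the 6 libraries of 7 months lie below -0.3 and all 18-month libraries above 0, and on the right the ages overlap.

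As a share of all counts in the family, calcium alpha1 subunits took 22.9% to 24.8% in 5 libraries of 7 months, 31.3% in saline library 2 and 34.9% to 36.4% at 18 months. Calcium beta subunits took 15.4% to 16.5%, 14.2% and 11.4% to 12.0% in the same order.

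Saline library 2 of 7 months stood apart within its own group. Against the mean of saline libraries 1 and 3, the median ratio was 1.69 for the 14 pore-forming genes, with 14 of 14 above 1, and 0.945 for the 19 auxiliary genes, with 9 above 1. Over all genes the median ratio was 0.960, and for transcripts over 5000 nt 1.37. Without this library, the number of channel genes that differed between ages with saline was 26 instead of 17, with 22 higher and 4 lower, where 60.4% of all tested genes differed. Without saline library 3 of 7 months it was 11, where 33.3% of all tested genes did, so the count moved with the background.

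Nicotine and saline were compared within each age to ask which channel genes the infusion changed. At 7 months 0 of the 35 genes passed edgeR's test, where 0.0114% of all 17596 tested genes did, 0.00568% higher and 0.00568% lower. DESeq2 called 0 as well, where it called 0.273% of all genes. By edgeR 0 had an unadjusted p under 0.05, where 6.5% of all genes did. At 18 months 0 of 35 passed, against 0.044% of 18196 genes (0.022% higher and 0.022% lower). Here 3 genes, Cacnb4, Scn4b and Scn3b, had an unadjusted p under 0.05, which is near the 6.73% of all genes that did. The DESeq2 count was 0, where that tool called 0.184% of all genes. Averaged over ages 0 passed by either tool, where edgeR called 0.0365% of all genes (0.0209% higher and 0.0156% lower) and DESeq2 0.25%. By edgeR 0 had an unadjusted p under 0.05, where 6.86% of all genes did. The difference of the nicotine effect between ages passed for 0 channel genes by either tool. Of all genes, edgeR called 0.00522%, all higher, and DESeq2 0.11%. By edgeR the same 3 genes had an unadjusted p under 0.05, as did 7.85% of all genes.

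At 7 months 16 of 16 pore-forming genes had values below 0 with nicotine, with a median of -0.21, and 4 of 19 auxiliary genes lay above 0, with a median of -0.14. The median over all tested genes was -0.01, and that of genes over 5000 nt -0.22. This direction rested on saline library 2. Without it, 4 of the 16 pore-forming genes lay below 0 and their median was 0.09, and with length and GC offsets their median was 0.03. The smallest adjusted p of a channel gene without that library was 0.431. Dentate granule cell markers summed to 204 to 257 CPM with saline and 171 to 195 CPM with nicotine at this age. Only Lct was lower in every nicotine library than in every saline library, and Prox1, C1ql2, Dsp and Tdo2 overlapped. How many of all genes lacked overlap in this comparison was not counted, so the separation of Lct has no background beside it. The part of these markers in the channel values was not tested.

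**Figure D5:**
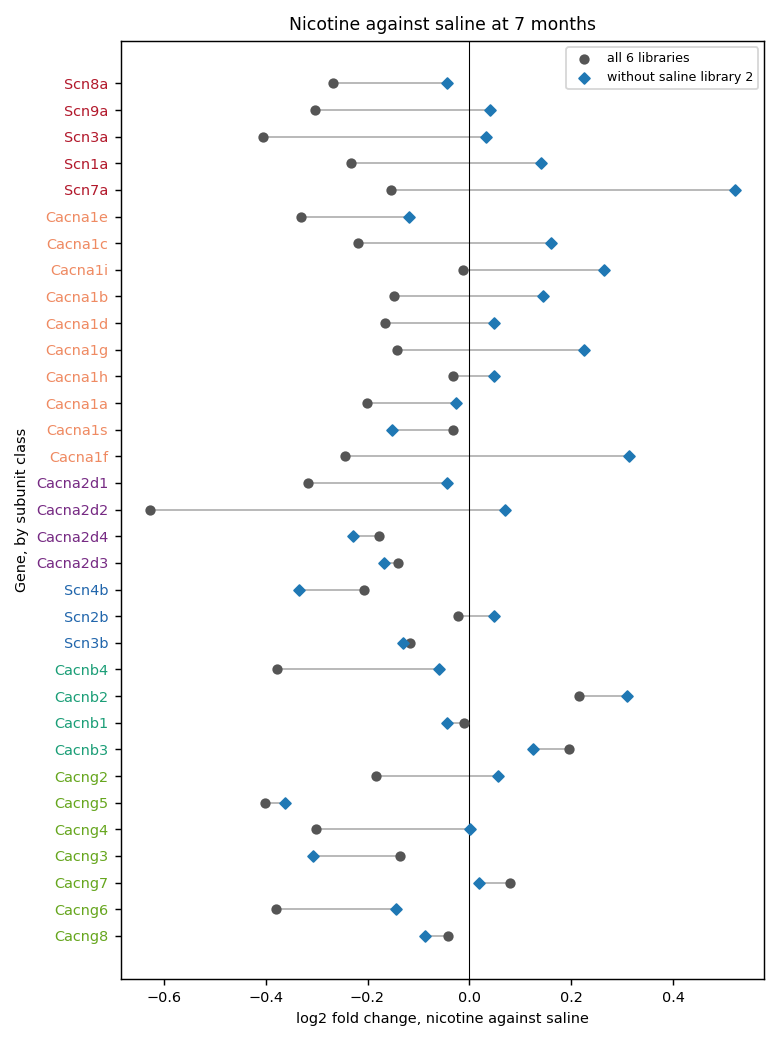
log2 fold change of nicotine against saline at 7 months for each tested gene reported here, from all 6 libraries (grey circles) and without saline library 2 (blue diamonds). With all libraries the pore-forming genes drawn lie below 0, and without that library most of them lie above it.

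Scn8a had -0.27 ± 0.18 at 7 months (adjusted p = 0.656) and -0.04 without saline library 2. Cacna1e had -0.33 ± 0.17 and -0.12, and Cacna2d1 -0.32 ± 0.20 and -0.04. Cacng5 had the smallest unadjusted p of the family at 7 months, at 0.0729, with -0.40 ± 0.19. Its levels were 12.1, 16.2 and 18.7 CPM with saline and 11.4, 13.8 and 10.8 CPM with nicotine, which overlapped. Cacnb2 had 0.21 ± 0.13, with 53.03, 63.8 and 56.1 CPM against 60.5, 76.01 and 66.4 CPM, and the highest saline value exceeded the lowest nicotine value.

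At 18 months the smallest p belonged to Cacnb4, with 0.18 ± 0.05 (unadjusted p = 0.00406, adjusted p = 0.519), and its nicotine libraries all lay above its saline libraries. Scn4b had 0.24 ± 0.07 (adjusted p = 0.603). Its values were 25.3, 28.1 and 26.2 CPM with saline and 30.8, 30.3 and 33.6 CPM with nicotine, without overlap, and at 7 months 36.2, 27.4 and 39.6 CPM with saline and 32.8, 29.3 and 28.03 CPM with nicotine overlapped. The difference of the Scn4b effect between ages was 0.45 ± 0.18 (adjusted p = 0.623). Scn9a had -0.55 ± 0.25, Cacna2d2 -0.30 ± 0.15, Cacna1c -0.13 ± 0.07 and Cacng3 0.13 ± 0.08, and none had an adjusted p under 0.749.

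Scn3b had 0.24 ± 0.08 (adjusted p = 0.649) at 18 months. Its levels were 247, 221 and 230.3 CPM with saline and 289, 240.4 and 304 CPM with nicotine. Cacna1h had 204, 190.2 and 202 CPM with saline and 252, 179 and 253 CPM with nicotine, so nicotine libraries 1 and 3 were high in both genes and library 2 was not. The 5 dentate granule cell markers, none at 0 in any library, summed to 364 and 465 CPM in those 2 libraries, 194 CPM in nicotine library 2 and 248 to 258 CPM with saline. Their part in these values was not tested.

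Genes that work with these channels were taken from lists chosen with earlier results known. Of 10 sodium channel partners, 7 were higher and 0 lower at 18 months with saline, beside 21.5% and 24.6% of all genes. With nicotine 6 were higher and 0 lower, beside 29.5% and 29.8%. In either direction 46.1% of all genes were called with saline and 59.3% with nicotine. With offsets, 3 were higher and 1 lower with saline, beside 17.5% and 20.6% of all genes, and 4 and 1 with nicotine, beside 23.1% and 24%. Ank3, the ankyrin that anchors sodium channels at the axon initial segment, had 1.42 ± 0.24 with saline and 1.89 ± 0.24 with nicotine (adjusted p = 0.000942 and 9.64e-05), and 0.87 and 1.00 with offsets. Scn2a1 had 129.8, 240.03 and 128 CPM with saline and 129, 138 and 128 CPM with nicotine at 7 months, and 342, 297 and 320.4 and 319.7, 338 and 332 CPM at 18 months. Its log2 fold changes were 0.95 ± 0.19 and 1.32 ± 0.19 (adjusted p = 0.00242 and 0.000185), and it was higher at 18 months with offsets too, at 0.48 and 0.50.

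Of 19 calcium channel partners, 6 were higher and 5 lower with saline, and 8 higher and 7 lower with nicotine, beside the same background. With offsets, 4 were higher and 2 lower with saline, and 7 and 5 with nicotine, where 38.1% and 47.1% of all genes differed. Rims1, which tethers calcium channels at release sites, had 1.74 ± 0.35 and 2.51 ± 0.36 (adjusted p = 0.0024 and 0.000173), and 1.48 and 1.95 with offsets. Akap5, the anchor of kinase and phosphatase at L-type channels, had 1.02 ± 0.16 and 1.46 ± 0.17, and 0.70 and 0.86 with offsets. Calm2, a calmodulin gene, was lower at -0.64 ± 0.13 and -0.59 ± 0.13, and -0.45 and -0.35 with offsets. Stx1a, a release protein that binds presynaptic channels, was lower at -0.48 ± 0.16 and -0.87 ± 0.16 from the deposited counts. With offsets it had -0.09 with saline (adjusted p = 0.481), which was not called, and -0.26 with nicotine (adjusted p = 0.0418). Of 8 tested genes of related cation channels, 4 were higher and 0 lower with saline, and 5 higher and 1 lower with nicotine. Of all genes, 21.5% were higher and 24.6% lower with saline, and 29.5% and 29.8% with nicotine. With offsets 3 of the related channels were higher and 0 lower with each infusion. The shares of all genes were then 17.5% and 20.6% with saline, and 23.1% and 24% with nicotine. Unc80, a subunit of the sodium leak channel complex, had 0.89 ± 0.21 and 1.27 ± 0.21, and 0.15 and 0.15 with offsets.

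For nicotine, edgeR called 0 partners in any of the 4 comparisons, where it called at most 0.044% of all genes. Of 19 calcium channel partners, 2 had an unadjusted p under 0.05 at 7 months, beside 6.5% of all genes. At 18 months 1 did (6.73%), averaged over ages 2 (6.86%) and for the difference between ages 2 (7.85%). Of the related cation channels, 0 had such a p at 7 months and 1 in each other comparison. Of the sodium channel partners 0 did in all 4. Gem, a small GTPase that inhibits calcium channels through their beta subunits, came nearest to a call. Its levels at 7 months were 4.20, 4.97 and 4.97 CPM with saline and 2.35, 2.17 and 1.71 CPM with nicotine, without overlap. At 18 months they were 4.07, 4.54 and 4.94 and 8.05, 6.48 and 5.25 CPM, again without overlap but in the other direction. The log2 fold changes were -1.20 ± 0.20 (adjusted p = 0.6) and 0.53 ± 0.17 (adjusted p = 0.613), and their difference was 1.73 ± 0.26 (unadjusted p = 2.78e-05, adjusted p = 0.133), which did not pass.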

How the data were processed

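Hippocampal RNA of 12 libraries was sequenced. The authors deposited raw read counts per gene, with no normalization, in 1 table per age. The submitters' processing notes name TopHat and GRCm38. The counting tool and strand setting are not given in the sources used here, and 22 of the 39 genes overlap a gene on the other strand whose reads may be mixed with theirs. The extraction text describes a small RNA kit, although the counts cover mRNA. Groups came from the labels.

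The main test was the quasi-likelihood F-test of edgeR 4.0.16 (R 4.3.3) after filterByExpr and TMM scaling, with p adjusted by Benjamini-Hochberg over all genes tested and called under 0.05. Nicotine was compared within each age from 6 libraries; other comparisons came from 4 group means in 12 libraries. Each SE was derived from the fold change and its F statistic. Offsets were splines with 4 degrees of freedom on transcript length and GC content (GENCODE M21, longest coding transcript, also the source of coordinates). Alternatives were DESeq2 1.42.0, RLE factors, no filter, a replicate block, and leaving out libraries. The procedure was tested on simulated data. The genes described, the partner lists and the marker lists were chosen with earlier results of these data known. Genes given library by library were, per subunit class, those highest per length, those with the smallest p in each comparison and a fixed set of 14; genes named outside that rule were chosen after their values were seen. Some channel genes are not reported here by name or in the figures, and they stay in the counts, medians and shares. Python 3.11.15 made tables and figures.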

Additional observations from a re-analysis of the deposited data

How the results depend on the processing

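Under saline, the number of channel genes that differed between ages ranged from 11 to 26 when 1 library was left out, while the share of all tested genes ranged from 32% to 60.4%. It was 26 without 7-month saline library 2 and nicotine library 1 together and 10 without both 7-month libraries numbered 3, where 61.9% and 30.3% of all genes differed. Under nicotine it ranged from 17 to 18 over single libraries left out, where 51.5% to 53.3% of all genes differed. With length and GC offsets it was 9, where 47.1% did. For nicotine at 7 months the offsets left 11 of 16 pore-forming genes above 0 instead of 0, among them Cacna1e (0.00899) and Scn8a (0.00941). For age under nicotine, signs that turned included those of Cacnb3 (0.000669), Cacnb4 (-0.0497) and Scn9a (-0.87, called), and under saline that of Cacnb4 (-0.25, called). Leaving out 7-month saline library 2 and nicotine library 1 turned Cacna2d1 for nicotine at 7 months (0.0117). The age difference of pore-forming minus auxiliary level, 0.58 with saline and 0.49 with nicotine, became 0.0372 and -0.26 with the offsets, and 0.36 with nicotine over every gene with at least 1 count. The nicotine difference at 7 months, -0.05, was 0.18 without saline library 2. For nicotine, 0 channel genes were called in each of the 4 comparisons under every alternative run, where at most 0.273% of all genes were. The cause of these changes was not tested.

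Libraries of the same number had correlated departures from their group means of -0.098 to 0.196, so the numbers were not taken as pairs. At 7 months, 1 of the 3 saline libraries correlated best with its own number, and at 18 months 0 of 3. With a replicate block, 0 channel genes were called for nicotine in each comparison, where at most 0.0495% of all genes were. For age 17 were called with saline and 18 with nicotine, beside 44.4% and 57.5% of all genes.

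Counting error was small for most of these genes, but Cacna1s and Cacna1f had 171 and 187 counts in all 12 libraries, so changes in them were poorly measured. At 7 months the common dispersion was 0.0417 and at 18 months 0.00956, so the earlier age had the wider spread. The age comparisons shared a dispersion fitted over all 12 libraries, with a common value of 0.0269. Their SE and p therefore average over spreads that differ between groups.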

Other observations

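Scn7a, at a low level, had its highest value of each age in the saline library numbered 2. Its values were 1.39, 2.80 and 0.635 CPM at 7 months and 2.06, 3.55 and 2.54 CPM at 18 months with saline, and 1.97, 1.00 and 1.40 CPM and 1.78, 3.12 and 1.28 CPM with nicotine. This gene was chosen after its values were seen.

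Among the gamma genes that lie side by side on chromosome 7 (Cacng7 at 3332955 to 3368221, Cacng8 at 3390683 to 3415648 and Cacng6 at 3424195 to 3435667, all on the plus strand of GRCm38), only Cacng8 was called from the deposited counts in the age comparisons. Cacng6 had -0.92 ± 0.71 with saline and -0.59 ± 0.72 with nicotine, and whether the neighbours differ from Cacng8 was not tested.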
